A study of Homo sapiens with 6 samples.

Results

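The keratin genes of squamous and simple epithelium were examined in KYSE510, a human line established from squamous cell carcinoma of the oesophagus, after knockdown of the gene that the labels call RNH1. The 10 genes were taken by symbol from the 62700 genes of the deposited count table and fall into 3 classes, namely 3 basal keratins (KRT5, KRT14, KRT15), 3 hyperproliferative keratins (KRT6A, KRT16, KRT17) and 4 simple epithelial keratins (KRT7, KRT8, KRT18, KRT19). The shRNH1 group held 3 libraries of cells with a short hairpin RNA against the gene labelled RNH1, and their genotype is labelled RNH1 knockdown. The shControl group held 3 libraries of cells with a control hairpin, whose genotype is labelled WT. All 6 libraries came from the same line grown in medium with serum, and the stated purpose of the knockdown was a model of induced R-loops. The hairpin sequences, the time after their delivery and whether clones were picked are not stated in the labels.

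Library totals were 31394687 to 33421217 counts in shRNH1 and 40225486 to 41103220 counts in shControl. Levels are given as CPM, the counts per 1000000 counts of a library, scaled with trimmed-mean factors. RNASEH1, which encodes the nuclease that degrades RNA paired with DNA, was at 7.16 ± 0.213 CPM in shRNH1 and 31.6 ± 3.73 CPM in shControl (SD, n = 3 each). RNASEH1 was called lower (log2 fold change -2.14, Benjamini-Hochberg adjusted p = 1.61e-13 by edgeR). The ribonuclease inhibitor gene, whose approved symbol is RNH1, was at 478 ± 45.5 CPM in shRNH1 and 546 ± 97.4 CPM in shControl. Its groups overlapped and it was not called (Benjamini-Hochberg adjusted p = 0.221 by edgeR). The squamous regulator TP63 was present in both groups, at 52.5 ± 4.38 CPM in shRNH1 and 53.2 ± 3.64 CPM in shControl (SD, n = 3 each). Of 26 genes of the cornified envelope and of suprabasal cells, 6 were listed at 0 in all 6 libraries (IVL, LORICRIN, CRNN, SPRR1A, SPRR3 and CALML3) and 7 had enough counts to be tested. Among those 7, the filaggrin gene FLG was at 2.28 ± 0.200 CPM in shRNH1 and 2.34 ± 0.269 CPM in shControl, and the transglutaminase gene TGM1 was at 3.05 ± 0.551 CPM in shRNH1 and 4.38 ± 0.501 CPM in shControl (SD, n = 3 each), a pair named after their values were seen. TGM1 was called lower (log2 fold change -0.52, Benjamini-Hochberg adjusted p = 0.0346 by edgeR) and FLG was not called.

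Keratins are the intermediate filament proteins of epithelial cells. A filament is built from pairs of an acidic type I and a basic type II keratin, and the pair in use marks the kind of epithelium and the stage of its cells. KRT5 (type II) and KRT14 (type I) form the filaments of dividing basal cells in stratified epithelium, where KRT15 (type I) is an additional basal partner. KRT6A (type II), KRT16 and KRT17 (both type I) are induced in wounded or hyperproliferative squamous epithelium. KRT8 (type II) and KRT18 (type I) form the filaments of simple, single-layered epithelia. KRT7 (type II) and KRT19 (type I) accompany that pair in ducts and glands. Carcinomas of squamous origin can carry keratins of both kinds.

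Keratin genes lie in 2 clusters with many close relatives, which limits how well short reads separate them. On GRCh38, KRT14, KRT15, KRT16, KRT17 and KRT19 lie on chromosome 17. KRT5, KRT6A, KRT7, KRT8 and KRT18 lie on chromosome 12, where KRT18 is the only type I gene among them. KRT14 and KRT16 were 85.2% identical over their aligned coding sequences, KRT14 and KRT17 78.2%, and KRT16 and KRT17 72.5%. The stretch where KRT14, KRT16 and KRT17 are most alike is printed here because KRT14 and KRT16 changed in opposite directions. KRT14 and KRT16 reads that lie wholly within that stretch cannot be told apart. The stretch spans coding bases 358 to 447 of KRT16, 352 to 441 of KRT14 and 259 to 348 of KRT17, read from the reference transcripts 5′ to 3′. Capitals mark the 5 of 90 positions at which the 3 genes differ.
KRT16: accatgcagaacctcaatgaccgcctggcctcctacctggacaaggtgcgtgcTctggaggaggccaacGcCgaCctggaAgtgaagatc
KRT14: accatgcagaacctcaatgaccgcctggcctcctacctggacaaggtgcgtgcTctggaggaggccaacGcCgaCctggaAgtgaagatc
KRT17: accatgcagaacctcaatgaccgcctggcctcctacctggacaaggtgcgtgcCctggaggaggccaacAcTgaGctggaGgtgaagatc
KRT14 and KRT16 were identical across this stretch, and KRT17 differed from both at all 5 positions.

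Another stretch was picked because it holds the most differences between KRT16 and KRT14, so their separation there was fixed by the choice. It spans coding bases 967 to 1026 of KRT16, 961 to 1020 of KRT14 and 868 to 927 of KRT17, again on chromosome 17 and 5′ to 3′, with capitals at the 21 of 60 positions where the 3 genes differ.
KRT16: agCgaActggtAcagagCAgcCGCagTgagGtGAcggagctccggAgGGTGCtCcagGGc
KRT14: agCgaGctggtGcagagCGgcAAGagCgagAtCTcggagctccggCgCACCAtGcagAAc
KRT17: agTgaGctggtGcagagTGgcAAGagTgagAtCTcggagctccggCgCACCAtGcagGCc
KRT14 and KRT17 each differed from KRT16 at 19 of the 60 positions, but from each other at only 5. Over whole coding sequences, however, KRT14 was closer to KRT16 (85.2% identical) than to KRT17 (78.2%). KRT17 was far more abundant than KRT14 per kb of coding sequence, at 349 to 391 CPM per kb in shRNH1 and 308 to 436 CPM per kb in shControl, where KRT14 was at 3.55 to 3.81 CPM per kb in shRNH1 and 8.73 to 11.1 CPM per kb in shControl. The part of KRT17 reads in the KRT14 or KRT16 counts was not tested. Over whole reference transcripts, 22.0% of the 50-base windows of KRT16, 23.8% of those of KRT14 and 16.0% of those of KRT17 occurred in another gene too. This share was 47.6% for KRT18, 39.1% for KRT6A, 36.9% for KRT8 and 10.8% for KRT7, and it was below that for KRT5 (3.99%), KRT19 (1.79%) and KRT15 (0.328%). The labels do not say how the authors' counting treated such reads, so the counts of KRT6A, KRT8, KRT14, KRT16, KRT17 and KRT18 carry that uncertainty.

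The keratin mRNA of these cells was mostly of the simple epithelial class in both groups. Per kb of coding sequence, KRT8 was the most abundant of the 10 genes, at 2002, 2161 and 2131 CPM per kb in shRNH1 and 3074, 2719 and 3512 CPM per kb in shControl. KRT7 came next, then KRT18, KRT19 and KRT17. The other 5 genes were at least an order of magnitude below KRT17 in shRNH1, with KRT15 at the head of them in shRNH1 and KRT6A in shControl. KRT16 was the lowest in both groups, at 3.59, 3.53 and 3.23 CPM per kb in shRNH1 and 2.05, 2.27 and 2.43 CPM per kb in shControl. Neighbours in that order mostly did not overlap. The exceptions in shRNH1 were KRT18 (724 to 731 CPM per kb) with KRT19 (690.3 to 729 CPM per kb), and KRT14 (3.55 to 3.81 CPM per kb) with KRT16. The exception in shControl was KRT8 with KRT7, which reached 2962 CPM per kb.

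**Figure D1:**
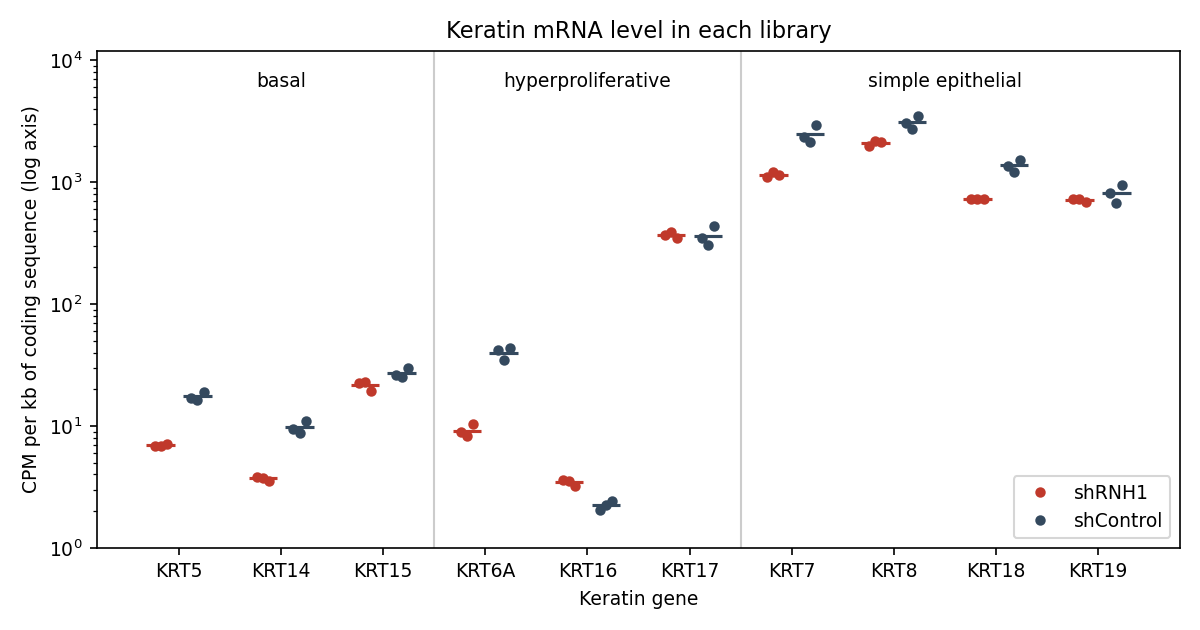
Level of each keratin in CPM per kb of coding sequence, on a log axis, with 1 point per library and a line at the mean of 3 libraries, shRNH1 left and shControl right within each gene. The simple keratins and KRT17 lie far above the other 5 genes in both groups, and KRT16 is the only gene whose shRNH1 points all lie above its shControl points.

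Across the 10 genes, 7 were lower in shRNH1, 1 was higher and 2 did not pass the test. Calls were made with the quasi-likelihood test of edgeR at a Benjamini-Hochberg adjusted p below 0.05, over 19682 genes. Of all genes tested, 27.6% passed it, 12.3% lower and 15.3% higher. The ranges of the groups did not overlap for 8 of the 10 keratins, against 40.0% of all genes tested. The median log2 fold change (shRNH1 over shControl) was -0.74 over the 10 keratins and 0.02 over all genes. Summed over the 10 genes, the level was 7001 ± 205 CPM in shRNH1 and 11359 ± 1638 CPM in shControl (SD, n = 3 each). That sum took 0.691% to 0.758% of a library's counts in shRNH1 and 0.991% to 1.19% in shControl.

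Features of whole libraries touch these values. With library size as the scaling, the median over all genes moved to 0.13 and 73.9% of the called genes were higher, against 55.4% with trimmed-mean scaling, and 6 of the 10 keratins were lower. The most abundant genes, in the highest of 5 equal bins by expression, had a median log2 fold change of -0.10, and the fitted trend of log2 fold change with expression, read at the level of each of the 5 most abundant keratins, was -0.26 for KRT8, -0.24 for KRT7, -0.21 for KRT18, -0.19 for KRT19 and -0.16 for KRT17. shControl replicate 3 had the highest CPM of its group for all 10 keratins and the lowest scaling factor of the 6 libraries (0.912), and shControl replicate 2 was lowest of its group for 9. Whether this spread arose in the cells or in library making was not tested. In a bulk sample, fewer cells that express a gene and less of its RNA per cell cannot be told apart.

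Both members of the basal pair fell, and KRT15 fell less. KRT5 (ENSG00000186081; chromosome 12, 52514575 to 52520687, minus strand), the type II basal keratin, was at 12.1, 12.2 and 12.6 CPM in shRNH1 and 30.0, 28.96 and 33.9 CPM in shControl. Every shRNH1 library lay far below every shControl library. The fitted log2 fold change was -1.33 (SE 0.105, Benjamini-Hochberg adjusted p = 2.35e-10 by edgeR), or 39.7% of the shControl level (95% interval 34.2% to 46.2%). These values rest on 411 to 428 counts per library in shRNH1 and 1166 to 1250 in shControl.

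KRT14 (ENSG00000186847; chromosome 17, 41582279 to 41586921, minus strand), the type I partner of KRT5, was at 5.40, 5.32 and 5.03 CPM in shRNH1 and 13.5, 12.4 and 15.7 CPM in shControl. The groups were again apart, with the shControl libraries spread more widely. KRT14 stood at 38.0% of its shControl level (95% interval 31.5% to 45.8%; log2 fold change -1.40, SE 0.131; Benjamini-Hochberg adjusted p = 5.69e-09 by edgeR).

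KRT15 (ENSG00000171346; chromosome 17, 41513743 to 41522529, minus strand), which is known from basal cells and from stem cells of the hair follicle, had the smallest change of the class. Its level was 31.1, 31.4 and 26.3 CPM in shRNH1 and 36.0, 34.6 and 40.9 CPM in shControl. The groups did not overlap, but the gap between the highest shRNH1 and the lowest shControl library was small. The log2 fold change of -0.33 (SE 0.102) was past the threshold (Benjamini-Hochberg adjusted p = 0.0174 by edgeR). It did not pass with library size as the scaling (-0.21, adjusted p = 0.138), without shRNH1 replicate 3 (-0.25, adjusted p = 0.126) or without shControl replicate 3 (-0.25, adjusted p = 0.0915; edgeR with Benjamini-Hochberg adjustment for all 3). Over the basal class, 3 of 3 genes were lower, against 12.3% of all genes tested, with a median log2 fold change of -1.33. Their summed level was 47.2 ± 2.78 CPM in shRNH1 and 81.9 ± 7.63 CPM in shControl (SD, n = 3 each).

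The reference promoter of KRT5 is shown because it was the only basal or hyperproliferative keratin with an entry in the promoter table used here. KRT8 was the only other member with an entry. The 250 bases before the RefSeq start of KRT5 (GRCh38.p14, chr12:52520395-52520644, minus strand) are printed 5′ to 3′ on the strand of the gene, with capitals on ATAAAA, a run of letters that resembles a TATA box and lies 29 to 24 bases before the start.
KRT5 promoter: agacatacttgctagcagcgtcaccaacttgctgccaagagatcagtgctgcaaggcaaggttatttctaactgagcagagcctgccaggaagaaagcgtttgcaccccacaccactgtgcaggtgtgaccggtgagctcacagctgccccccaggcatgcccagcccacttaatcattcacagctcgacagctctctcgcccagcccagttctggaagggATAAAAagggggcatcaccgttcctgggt
On both strands, ATAAAA occurred in 14.8% of 35116 RefSeq promoter windows of this length. The KRT5 window held no match to TGANTCA (an AP-1 motif, in 6.57% of windows), TATAAA (10.7%), GCCNNNGGC (an AP-2 motif, 19.8%) or GGGCGG (an SP1 motif, 42.6%). The window of KRT8 (chr12:52926470-52926719, minus strand) held none of the 5 motifs. It lies inside the annotated span of the gene (52897187 to 52949954), not at its outermost start. Which start these cells use was not tested. These are matches of letters in a short window and say nothing of binding.

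The hyperproliferative keratins went 3 ways. KRT6A (ENSG00000205420; chromosome 12, 52487174 to 52493257, minus strand), the type II keratin of wounded and activated keratinocytes, had the largest fall of the 10 genes. It was at 15.1, 13.95 and 17.5 CPM in shRNH1 and 70.6, 59.4 and 73.4 CPM in shControl. The 3 shRNH1 libraries lay close together, far below the shControl libraries. That left 22.9% of the shControl level (95% interval 19.6% to 26.8%; log2 fold change -2.13, SE 0.110; Benjamini-Hochberg adjusted p = 8.33e-14 by edgeR). KRT6A shares 35.2% of its 50-base windows with its paralog KRT6C. KRT6B had 1 to 5 counts per library in shRNH1 and 2 to 4 in shControl, and KRT6C had 0 to 2 in shRNH1 and 1 to 3 in shControl.

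KRT16 (ENSG00000186832; chromosome 17, 41609778 to 41615899, minus strand), the type I keratin usually paired with KRT6A, was the only member that rose. Its counts were 173, 176 and 151 in shRNH1 and 113, 133 and 127 in shControl, or 5.10, 5.01 and 4.58 CPM in shRNH1 and 2.90, 3.22 and 3.45 CPM in shControl. All shRNH1 libraries were above all shControl libraries, even in raw counts from smaller totals. The rise was 1.54-fold (95% interval 1.21 to 1.95; log2 fold change 0.62, SE 0.168; Benjamini-Hochberg adjusted p = 0.00632 by edgeR). Annotated KRT16 pseudogenes summed to 16 to 31 counts per library in shRNH1 and 16 to 24 in shControl. With these added to KRT16 it remained called higher. KRT17 had 14905 to 17813 counts in shRNH1 and 16504 to 20819 in shControl. The part of KRT17 reads in the KRT16 counts was not tested.

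KRT17 (ENSG00000128422; chromosome 17, 41619441 to 41624842, minus strand), an abundant type I keratin in these cells, had a log2 fold change near 0. Its level was 474, 507 and 452 CPM in shRNH1 and 449.6, 399 and 565 CPM in shControl. The shControl range enclosed the whole shRNH1 range. The log2 fold change was 0.02 (95% interval -0.21 to 0.25; Benjamini-Hochberg adjusted p = 0.924 by edgeR), so the interval of the ratio ran from 0.867 to 1.19. Its sign depended on the scaling, at -0.002 with median-of-ratios factors and 0.18 with an offset for expression level. Over the class, 1 of 3 genes was higher, 1 lower and 1 not past the threshold, where 15.3% of all genes were higher and 12.3% lower. The summed level, mostly KRT17, was 498 ± 26.4 CPM in shRNH1 and 542 ± 91.5 CPM in shControl (SD, n = 3 each).

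Among the simple keratins, KRT7, KRT8 and KRT18 fell, and KRT19 did not pass the test. KRT7 (ENSG00000135480; chromosome 12, 52232520 to 52252186, plus strand), a type II keratin of ducts and glands, was at 1547, 1699.6 and 1611 CPM in shRNH1 and 3322, 2983 and 4167 CPM in shControl. The groups were separated by a wide gap, with shControl replicate 3 high. KRT7 was at 46.4% of its shControl level (95% interval 39.3% to 54.8%; log2 fold change -1.11, SE 0.117; Benjamini-Hochberg adjusted p = 4.59e-08 by edgeR). The annotated antisense gene KRT7-AS, which shares 282 exon bases with KRT7, was at 12.7 ± 0.310 CPM in shRNH1 and 20.7 ± 3.57 CPM in shControl (SD, n = 3 each) and was called lower as well (log2 fold change -0.70). Without a stated strand setting, reads from the shared bases cannot be told apart.

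KRT8 (ENSG00000170421; chromosome 12, 52897187 to 52949954, minus strand), the type II keratin of the simple pair, was at 2901, 3132 and 3088 CPM in shRNH1 and 4454, 3939.8 and 5089 CPM in shControl. The groups did not overlap, and the shControl libraries were the more scattered. KRT8 was at 67.7% of its shControl level (95% interval 57.7% to 79.3%; log2 fold change -0.56, SE 0.112; Benjamini-Hochberg adjusted p = 3.50e-04 by edgeR). With the offset for expression level the log2 fold change was -0.31 and still passed the same edgeR test (adjusted p = 0.0424). The 51 annotated KRT8 pseudogenes together had 912 to 1080 counts per library in shRNH1 and 1051 to 1189 in shControl, whereas KRT8 itself had 98393 to 109990 counts in shRNH1 and 162857 to 187524 in shControl.

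KRT18 (ENSG00000111057; chromosome 12, 52948871 to 52952901, plus strand), the type I partner of KRT8, was at 942, 934 and 936 CPM in shRNH1 and 1763, 1578 and 1974 CPM in shControl. The 3 shRNH1 libraries were almost level with each other, below every shControl library. KRT18 was at 52.9% of its shControl level (95% interval 45.6% to 61.3%; log2 fold change -0.92, SE 0.104; Benjamini-Hochberg adjusted p = 1.46e-07 by edgeR). KRT8 and KRT18 are neighbours that share 525 exon bases on opposite strands, so part of the counts of each could belong to the other.

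KRT19 (ENSG00000171345; chromosome 17, 41523617 to 41528308, minus strand), the smallest type I keratin, was at 874, 875 and 828 CPM in shRNH1 and 976, 816 and 1141 CPM in shControl. The groups overlapped because shControl replicate 2 lay below every shRNH1 library. The log2 fold change was -0.19 (95% interval -0.41 to 0.04; Benjamini-Hochberg adjusted p = 0.223 by edgeR). Without shControl replicate 2 it passed (-0.31, Benjamini-Hochberg adjusted p = 0.0383 by edgeR), and with the offset for expression level it was 0.003. Over the class, 3 of 4 genes were lower, against 12.3% of all genes tested, with a median log2 fold change of -0.74. The summed level was 6456 ± 188 CPM in shRNH1 and 10735 ± 1539 CPM in shControl (SD, n = 3 each).

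**Figure D2:**
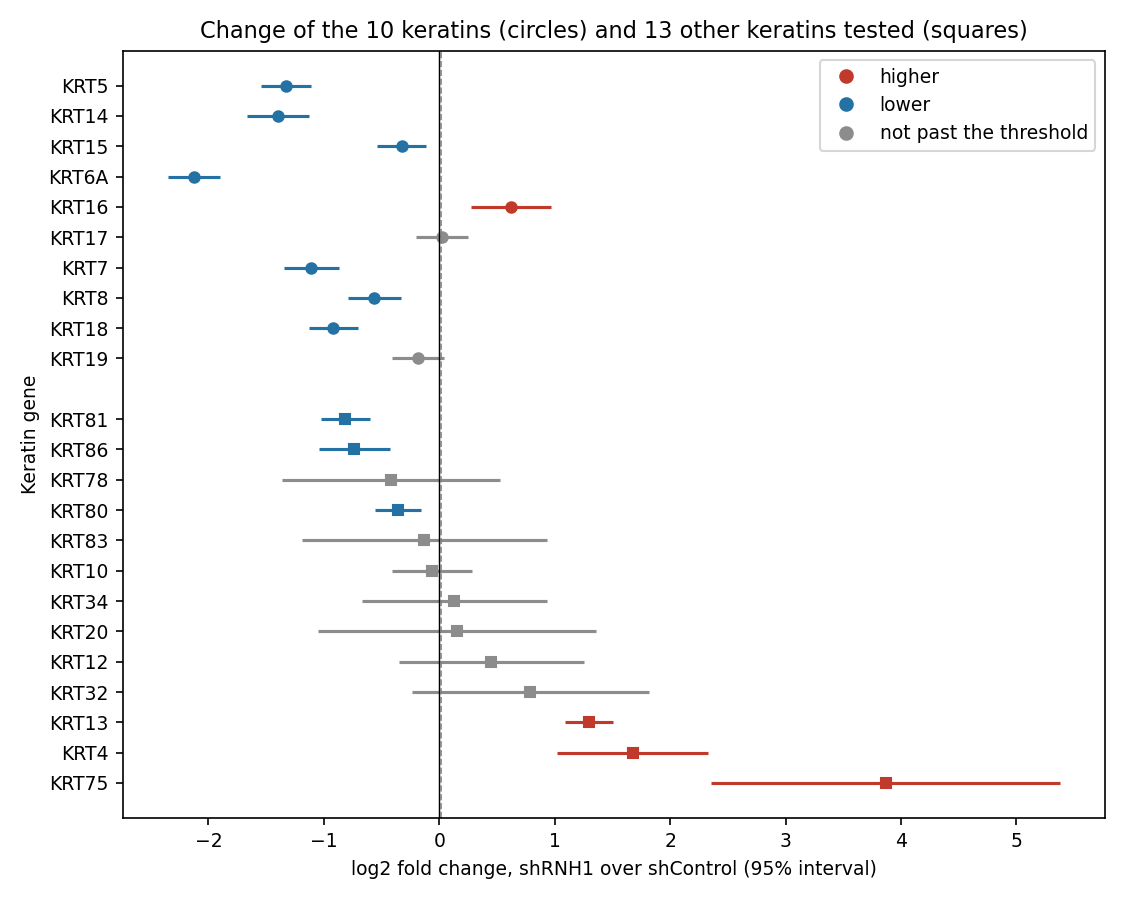
Log2 fold change of each keratin, shRNH1 over shControl, with its 95% interval from the edgeR fit, for the 10 keratins (circles) and the 13 other keratins tested (squares), coloured by the call. The dashed line is the median of all genes tested, 0.02. KRT6A lies lowest at -2.13, and KRT16 is the only circle called higher.

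Because keratins work in pairs, ratios between members were compared within each library, where no size factor is needed. The ratio of KRT14 to KRT5 was 0.445, 0.437 and 0.400 in shRNH1 and 0.449, 0.427 and 0.462 in shControl. The groups overlapped, and the difference of log2 ratios was -0.06 (exact two-sided permutation p = 0.4). For the other 4 ratios the groups did not overlap and the exact two-sided permutation test gave p = 0.1, the smallest that 3 against 3 allows. Adjusted over the 5 ratios by Benjamini-Hochberg, these permutation p-values were 0.125, and that of KRT14 to KRT5 stayed 0.4.

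The ratio of KRT18 to KRT8 was 0.325, 0.298 and 0.303 in shRNH1 and 0.396, 0.401 and 0.388 in shControl. The type I member of the simple pair was thus the lower relative to its partner in every shRNH1 library, by -0.36 on the log2 scale. KRT16 to KRT6A was 0.339, 0.359 and 0.261 in shRNH1 and 0.0411, 0.0542 and 0.0470 in shControl. This was the largest shift of the 5, a log2 difference of 2.75 or 6.72-fold. KRT17 to KRT16 was 92.9, 101 and 98.7 in shRNH1 and 155, 124 and 164 in shControl, a log2 difference of -0.59. KRT19 to KRT7, the accompanying simple keratins, was 0.565, 0.515 and 0.514 in shRNH1 and 0.294, 0.274 and 0.274 in shControl. Its log2 difference was 0.92, with the libraries of each group close together.

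**Figure D3:**
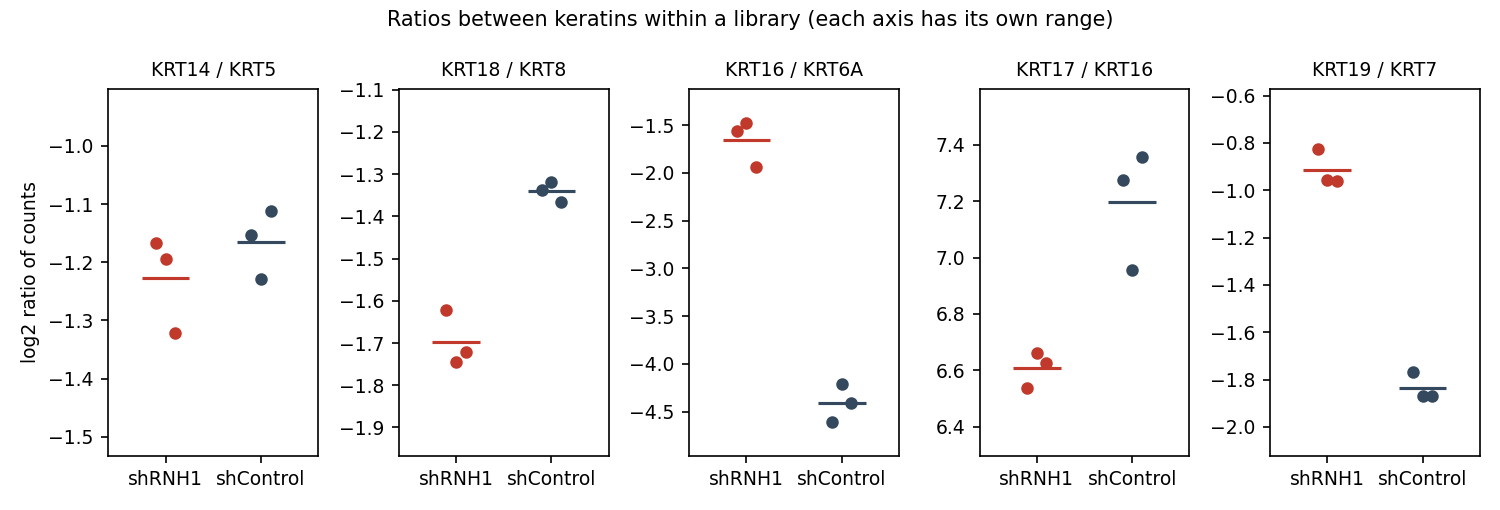
Log2 ratio of counts between 2 keratins of the same library for 5 ratios, 1 point per library and a line at the mean of 3, shRNH1 left and shControl right in each panel, each panel with its own axis range. The groups overlap for KRT14 over KRT5 and lie apart for the other 4 ratios, farthest for KRT16 over KRT6A.

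In the make-up of the keratin counts, the shares of 2 of the 3 classes did not overlap between the groups. Simple keratins took 92.2% ± 0.321 of the counts of the 10 genes in shRNH1 and 94.5% ± 0.0888 in shControl (SD, n = 3 each). Hyperproliferative keratins took 7.11% ± 0.283 in shRNH1 and 4.76% ± 0.117 in shControl, and the groups did not overlap for either class. Basal keratins took 0.674% ± 0.0421 in shRNH1 and 0.725% ± 0.0409 in shControl, with overlapping groups. Within the simple class, KRT8 averaged 43.4% in shRNH1 and 39.6% in shControl, and KRT19 averaged 12.3% in shRNH1 and 8.59% in shControl. KRT7 averaged 23.1% in shRNH1 and 30.7% in shControl, and KRT18 averaged 13.4% in shRNH1 and 15.6% in shControl. KRT17, whose own log2 fold change was near 0, took 6.82% in shRNH1 and 4.14% in shControl. These shares sum to a fixed total, so a fall of the abundant genes raises the share of the rest.

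All 4 type II members were lower in shRNH1 (median log2 fold change -1.22), whereas of the 6 type I members 3 were lower, 1 was higher and 2 did not pass (median -0.26). The shares over all genes tested were 12.3% lower and 15.3% higher. Among type II keratins outside the 10 genes, KRT4 and KRT75 were called higher and KRT80, KRT81 and KRT86 lower. Counted per kb of coding sequence, type I over type II keratins of the 10 genes came to 0.595, 0.554 and 0.544 in shRNH1 and 0.467, 0.460 and 0.453 in shControl. Every shRNH1 library had the higher ratio, and type II mRNA exceeded type I mRNA in all 6. The difference between type I and type II members was not tested, since the genes of a class are not replicates.

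**Figure D4:**
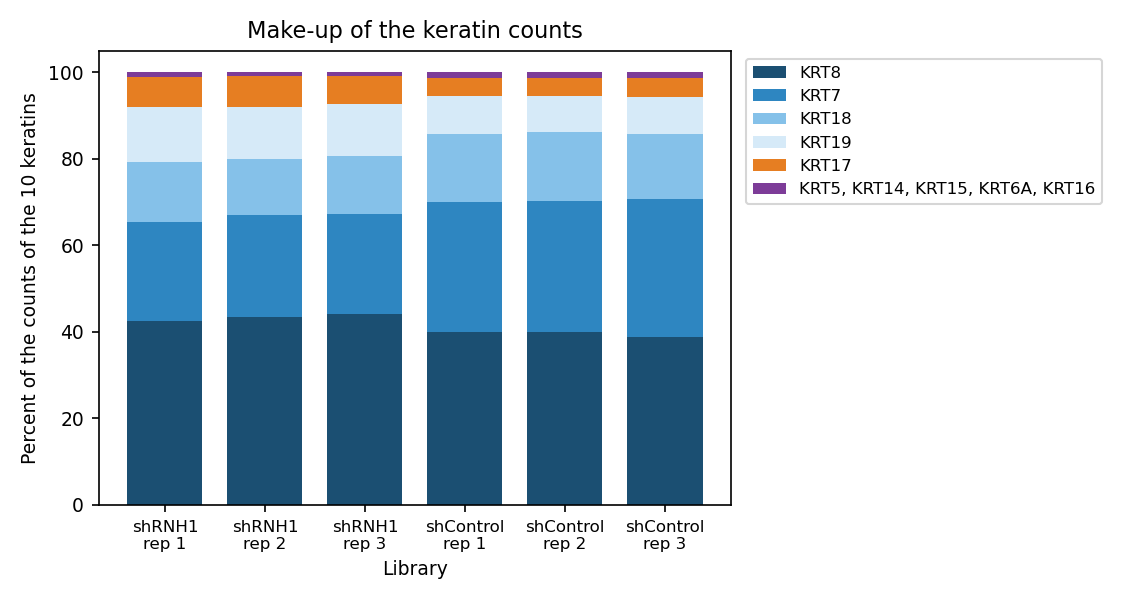
Percent of the summed counts of the 10 keratins taken by each gene, as stacked bars from 0 to 100, 1 bar per library, the 3 shRNH1 libraries left of the 3 shControl libraries. The KRT7 block is smaller and the KRT19 and KRT17 blocks are larger in all 3 shRNH1 bars, and the 5 scarce genes form a thin band on top.

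Of 44 other protein-coding keratin genes, 13 had enough counts to be tested and the other 31 had at most 17 counts in any library. Among the 13, 3 were higher, 3 lower and 7 not past the threshold, with a median log2 fold change of 0.13. Over all genes, 15.3% were higher and 12.3% lower. KRT13 and KRT4, the type I and type II pair of suprabasal cells in moist stratified epithelium such as the oesophagus, both rose. KRT13 was at 150.3, 155 and 143 CPM in shRNH1 and 57.4, 54.3 and 71.1 CPM in shControl. The groups were far apart (log2 fold change 1.29, SE 0.101; Benjamini-Hochberg adjusted p = 2.07e-10 by edgeR). KRT4 was scarce, with 50, 60 and 50 counts in shRNH1 and 16, 20 and 21 in shControl, and rose by 1.68 on the log2 scale (SE 0.318; Benjamini-Hochberg adjusted p = 2.18e-04 by edgeR).

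KRT75, a type II keratin of the hair follicle, had 21, 20 and 15 counts in shRNH1 and 0, 0 and 4 in shControl. It was called higher, but at so few counts the fitted log2 fold change of 3.87 (95% interval 2.35 to 5.38) is loose, and without shControl replicate 3 the other shControl libraries are listed at 0. KRT75 passed the count filter through the shRNH1 libraries alone, so the direction of its call was largely fixed by that filter. The hair keratin gene KRT81 was at 332 ± 8.67 CPM in shRNH1 and 583 ± 83.0 CPM in shControl (SD, n = 3 each) and fell by 0.81 on the log2 scale. Its near-identical paralog KRT86 fell by 0.74, or by 0.46 without shControl replicate 3, and the counts of both may hold reads of the other. KRT80, a type II keratin of many epithelia, was at 427 ± 17.5 CPM in shRNH1 and 548 ± 40.1 CPM in shControl (SD, n = 3 each), and its log2 fold change of -0.36 did not pass with the offset for expression level (-0.20, Benjamini-Hochberg adjusted p = 0.126 by edgeR). The epidermal suprabasal keratin KRT10 was at 5.68 ± 1.04 CPM in shRNH1 and 5.93 ± 1.24 CPM in shControl and did not pass. KRT12, KRT20, KRT32, KRT34, KRT78 and KRT83 were below 1 CPM in every library and did not pass either.

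Genes known to regulate keratin transcription moved in both directions. Of 29 tested, 9 were higher and 7 lower, with a median log2 fold change of 0.02, where 15.3% of all genes were higher and 12.3% lower. FOSL1, an AP-1 subunit, was at 52.6 ± 4.15 CPM in shRNH1 and 143 ± 16.5 CPM in shControl (SD, n = 3 each), a log2 fold change of -1.44. SOX2, a factor of oesophageal and squamous identity, was at 4.78 ± 0.930 CPM in shRNH1 and 0.748 ± 0.175 CPM in shControl, a log2 fold change of 2.68. HNF4A, a factor of hepatic and intestinal epithelium, rose by 1.34 and the retinoic acid receptor gene RARG by 0.80. TP63, which drives KRT5 and KRT14 in keratinocytes, had a log2 fold change of -0.02 (95% interval -0.22 to 0.18) and overlapping groups.

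Of 19 tested genes whose proteins anchor keratin filaments to junctions or plakins, 8 were lower and 4 higher. Their median log2 fold change was -0.08. Over all genes, 12.3% were lower and 15.3% higher. PLEC, encoding the linker plectin, fell by 0.86 on the log2 scale, the desmosomal plakophilin gene PKP2 by 0.60, and TCHP, encoding the keratin-binding protein trichoplein, by 0.62. PERP, a desmosomal membrane protein, rose by 0.54. PKP1, the plakophilin of suprabasal squamous cells, had 10, 21 and 16 counts in shRNH1 and 2, 1 and 0 in shControl and was called higher. PKP1 passed the count filter through the shRNH1 libraries alone, so the direction of its call was largely fixed by that filter. It was singled out after its values were seen.

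Among 19 genes of keratin turnover and modification, 4 were higher and 5 lower, with a median of 0.06. Over all genes, 15.3% were higher and 12.3% lower. TGM2, a transglutaminase, was at 429 ± 5.16 CPM in shRNH1 and 1567 ± 124 CPM in shControl (SD, n = 3 each), a log2 fold change of -1.87. PADI3, a peptidylarginine deiminase, rose by 1.19 and TRIM29, known to bind keratins in basal cells, by 0.55, and TRIM16 fell by 0.57. Of 10 other intermediate filament genes, 3 were higher and 3 lower, with a median of 0.28. The shares over all genes were again 15.3% higher and 12.3% lower. The nestin gene NES rose by 0.73 and the synemin gene SYNM by 0.64, whereas the lamin gene LMNB2 fell by 0.51, or by 0.34 with the offset for expression level. The vimentin gene VIM fell by 0.38 and did not pass with that offset (-0.25, Benjamini-Hochberg adjusted p = 0.0737 by edgeR).

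Of the 7 tested cornified envelope and suprabasal genes, 2 were higher and 3 lower, with a median of -0.03. Over all genes, 15.3% were higher and 12.3% lower. The squamous serpin genes SERPINB3 and SERPINB4 fell by 2.41 and 3.05 on the log2 scale. SERPINB3 had 14, 5 and 5 counts in shRNH1 and 45, 63 and 41 in shControl. SERPINB4 had 4, 6 and 3 counts in shRNH1 and 33, 58 and 36 in shControl. Both passed the count filter through the shControl libraries, so the direction of their calls was largely fixed by that filter. SERPINB3 was at 0.236 ± 0.154 CPM in shRNH1 and 1.26 ± 0.226 CPM in shControl (SD, n = 3 each), and as near-identical paralogs the 2 genes may share reads. CNFN, encoding cornifelin, was at 2.26 ± 0.759 CPM in shRNH1 and 0.637 ± 0.378 CPM in shControl (SD, n = 3 each) and was called higher. ECM1 was called higher at 0.32, but not when any of 5 of the 6 libraries was left out, nor with the replicate block or the offset for expression level.

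**Figure D5:**
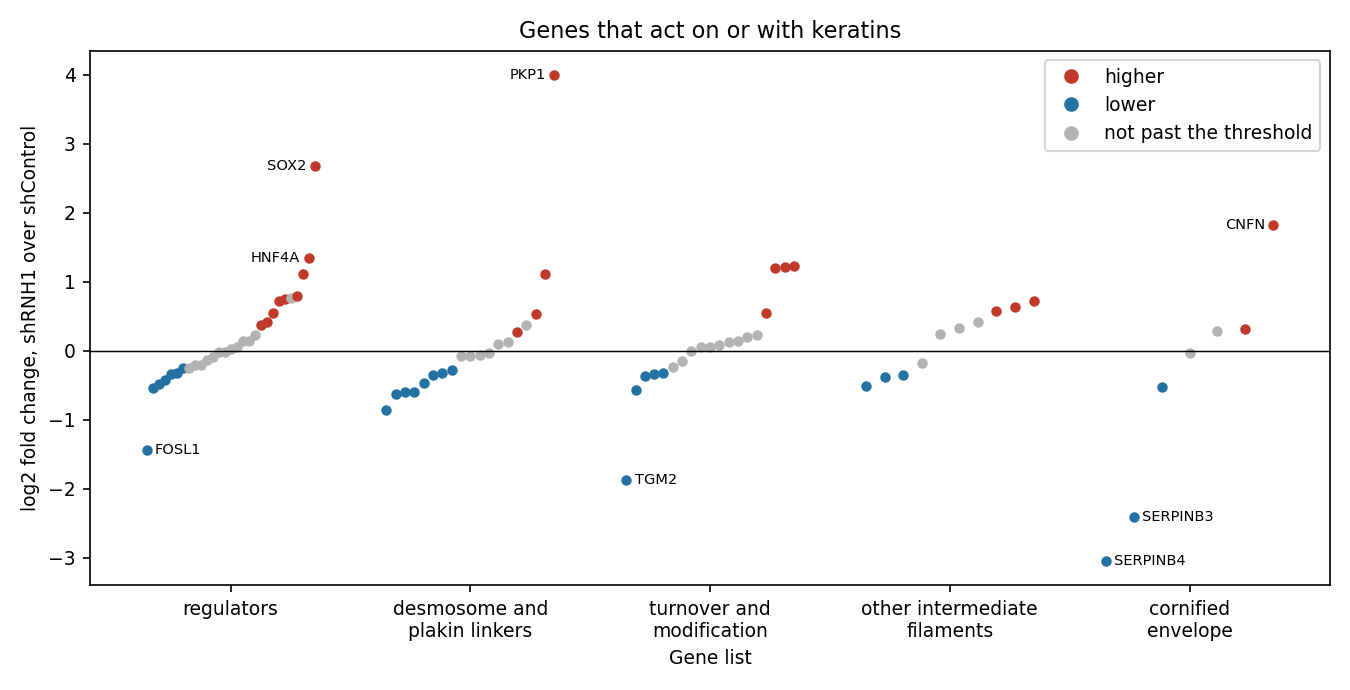
Log2 fold change, shRNH1 over shControl, of every tested gene in 5 lists of genes that act on or with keratins, ordered within each list and coloured by the call of the edgeR test. Genes called with a log2 fold change beyond 1.3 in either direction are named. Calls fall on both sides of 0 in every list, from SERPINB4 at -3.05 to PKP1 at 3.998. SERPINB4 and PKP1 are scarce, and each passed the count filter through the group where it is high.

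Markers of other cell types were read beside the keratins. Of 8 markers of glandular epithelium, 4 could be tested. Of these, 3 rose, VIL1 by 2.32, MUC1 by 0.53 and EPCAM by 0.44, and 1 did not pass. Over all genes tested, 15.3% were higher and 12.3% lower. VIL1 was scarce, with 79, 93 and 57 counts in shRNH1 and 23, 15 and 14 in shControl. The summed level of the list, mostly EPCAM, was 113 to 126 CPM in shRNH1 and 79.7 to 90.7 CPM in shControl. These 3 markers rose where KRT7, KRT8 and KRT18 fell. Of 8 markers of squamous basal cells, which include KRT5 and KRT14, 2 rose and 4 fell, and their sum, mostly ITGB4, was 1686 to 1870 CPM in shRNH1 and 2216 to 2721 CPM in shControl. Of 7 fibroblast markers, COL1A1 rose by 0.98 and PDGFRB fell by 0.91, COL1A2 and DCN were listed at 0, and the list summed to 111 to 133 CPM in shRNH1 and 62.6 to 71.9 CPM in shControl, mostly COL1A1. Of 6 leukocyte markers, CD14 and CSF1R could be tested and did not pass, with sums of 7.18 to 9.52 CPM in shRNH1 and 5.81 to 7.27 CPM in shControl. Of 4 endothelial markers, PECAM1 was called higher at 0.51, or 0.32 and not called without shRNH1 replicate 1, KDR was listed at 0, and the sums were 18.4 to 20.7 CPM in shRNH1 and 19.98 to 21.8 CPM in shControl. PECAM1 was also not called without shControl replicate 2 or 3 or with the offset for expression level. The part of these markers in the keratin result was not tested.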

How the data were processed

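The authors deposited raw counts per Ensembl gene, whole numbers for 62700 genes in 6 libraries of poly(A) RNA. HISAT2, StringTie, DESeq2 and GRCh38 are named in the submitters' processing notes, without roles or versions, and neither the counter nor its strand setting and annotation release is stated there or in the labels. Depth ran from 31394687 to 41103220 counts a library, and intervals of fold changes reflect replicate spread. Samples are labelled biological replicates, but their separation into cultures is not described, so a p-value measures only the spread between these libraries, which may be technical. No library looked like a copy of another (chi-square per gene within groups, 6.47 to 21.1).

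All 3 shRNH1 and 3 shControl libraries entered edgeR's quasi-likelihood test (edgeR 4.0.16, R 4.3.3) after TMM scaling and filterByExpr by group. The model had no covariate, and p-values were adjusted by Benjamini-Hochberg over the 19682 genes that passed, with 0.05 as the threshold. CPM are TMM-scaled. Standard errors came from the F statistic. Ratios within a library were compared by exact two-sided permutation, with no pseudocount. Alternatives were median-of-ratios factors, library size alone, an offset for expression level (robust spline of 5 degrees of freedom, MASS 7.3.60.0.1), DESeq2 1.42.0, limma-voom (limma 3.58.1), no filter, a filter at 1 CPM in 3 or more libraries, a replicate block, pseudogene counts added to the member, gene-model length for shares, 0.5 counts added for ratios, and each replicate left out. Counts were simulated with known changes between shRNH1 and shControl, 1.5-fold in 100 genes and 2-fold in 100, drawn from genes above a count floor. There edgeR tested 19180 genes, recovered 50% of 1.5-fold and 85% of 2-fold changes and made 9 false calls. With so few changed genes the adjusted threshold is stricter than in the data, where 27.6% of genes passed.

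Positions, coding lengths and transcripts came from GENCODE 29 (GRCh38), promoters from RefSeq (GRCh38.p14), where 2 of the 10 keratins matched. The members and lists were chosen with earlier results of these data known. All 10 members, the other tested keratins and, per other list, up to 4 called genes with the smallest adjusted p are named, besides TP63 and genes said to be chosen after their values were seen.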

Additional observations from a re-analysis of the deposited data

How the results depend on the processing

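Of the 10 keratins, 7 kept their direction and their side of the threshold in all 15 other settings, and the exceptions were KRT15, KRT17 and KRT19. Between 6 and 8 members were called lower, and 1 higher, in every setting. Over all genes, 1433 were lower with library size alone, against 2418. KRT15 was not called with library size alone (-0.21) and ranged from -0.39 to -0.25 when each replicate was left out. KRT17 was -0.0015 with median-of-ratios factors and -0.0016 with DESeq2, and ranged from -0.10 to 0.17 over the left-out replicates. KRT19 was 0.0030 with the offset for expression level and ranged from -0.31 to -0.059. The cause was not tested. Among other keratins, KRT10 was 0.041 with library size alone and ranged from -0.20 to 0.096 over the left-out replicates, KRT20 from -0.26 to 0.83, KRT34 from -0.062 to 0.39 and KRT83 from -0.44 to 0.33, none of them called. Per kb of gene model, the hyperproliferative share differed by 2.67 percentage points (2.35 in counts) and the simple share by -2.58 (-2.30 in counts).

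Same-numbered libraries did not deviate together (correlations of 0.0454, 0.0563 and -0.0489). With 3 libraries a group this cannot settle whether they shared a culture or batch, which the labels do not state. With the replicate block 2938 genes were higher and 2156 lower, and no keratin member changed its call. Of the other genes followed across the settings, only ECM1 did (0.31). Some named genes, such as TP63, TGM1 and PKP1, were not followed across the settings. Scarce keratins such as KRT75 and KRT83 gave no value under the stricter filter. The simulated recovery of 50% for 1.5-fold changes rests on few changed genes, none of the scarcest. It does not measure the sensitivity of this comparison.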
